A study of Homo sapiens with 6 samples.

Results

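The genes described here encode the respiratory chain, the set of enzymes in the inner mitochondrial membrane that pass electrons from nutrients to oxygen and use the released energy to make ATP. They were taken as the protein-coding genes whose symbols begin with NDUF, UQCR, COX4 to COX8 or ATP5, are SDHA, SDHB, SDHC or SDHD, or are MT-ND, MT-CO, MT-CYB or MT-ATP genes. This gave 110 of the 38126 genes listed, of which 97 lie in nuclear chromosomes and 13 in mitochondrial DNA. RNA was sequenced from HK-2 cells, an immortalised line of human proximal tubular epithelium, after 24 h with phosphoramidon, a compound that blocks zinc-dependent peptidases, neprilysin among them (n = 3 libraries), and from untreated cells (n = 3 libraries). Cells of both groups were kept in a keratinocyte medium free of serum, to which EGF and an extract of bovine pituitary had been added. No dose is given. Separate cultures are not stated for the replicates, so the p-values speak for differences beyond the spread of these libraries, and that spread may be technical. The letters CSE stand without explanation in the titles of the untreated libraries. Their treatment label gives them as untreated, and they were used as such.

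Complex I takes electrons from NADH and complex II from succinate. Both pass them through ubiquinone to complex III, cytochrome c and complex IV, which reduces oxygen. Complexes I, III and IV pump protons out of the mitochondrial matrix, and complex V, the ATP synthase, lets them return while it makes ATP. Mitochondrial DNA encodes a few hydrophobic subunits of every complex except complex II, and nuclear genes encode all other subunits and the assembly factors, so the complexes are built from the products of both genomes. Proximal tubule cells in the kidney depend on this pathway to drive the uptake of filtered solutes.

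The libraries held between 18690100 and 24919568 fragments, as computed from the step between the deposited values. FPKM is a level per length of gene and per size of library. Scaled FPKM below is the deposited FPKM divided by a TMM factor, which sets the libraries to a common scale and ran from 0.964 to 1.04. Fold changes are phosphoramidon over untreated on the scale of log2(scaled FPKM + 0.1), which understates changes of low genes. A gene is called higher or lower where limma's adjusted p was below 0.05 over the 16175 genes with at least 10 fragments in at least 3 libraries. Markers of tubular epithelium were uneven in level in both groups. Of the 12 listed, 9 were tested, and 4 of them were lower with phosphoramidon and 0 higher. Their median log2 fold change was -0.10, and 17.9% of all tested genes were lower. PAX8, a transcription factor of kidney epithelium, had 70.8, 69.4 and 66.2 scaled FPKM in phosphoramidon libraries, against 67.2, 65.5 and 63.2 scaled FPKM in untreated libraries, whereas LRP2, the endocytic receptor megalin that defines the proximal tubule in tissue, lay at or below 0.00612 scaled FPKM in all 6 libraries. Untreated replicate 2 stood apart for the mitochondrially encoded genes, as given with them.

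Most nuclear respiratory chain genes were not called, more of those called were lower than higher with phosphoramidon, and no mitochondrially encoded gene was called. Of 97 nuclear members, 90 passed the filter on low values, and 3 of them were higher, 15 lower and 72 not called. Of all 16175 genes tested, 33.6% were called, that is 15.6% higher and 17.9% lower. Of the nuclear members tested, 18 of 90 were called, and the lower ones made up 16.7%. The lower share was thus near the background and the called share below it. The median log2 fold change of the 90 was -0.08, with a middle range from -0.16 to 0.00, and 67 of them lay below 0, where 48.6% of all tested genes did and their median was 0.01. The groups did not overlap in 32 of the 90, against 48.1% of all tested genes. Phosphoramidon was lower in 27 of the 32 and higher in 5. Of all tested genes, 24.2% did not overlap with phosphoramidon lower and 23.9% with phosphoramidon higher. The fitted change of every called member was smaller than 1.5-fold, whereas 0.804% of all tested genes passed limma's treat test for a change beyond 1.5-fold.

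The split between higher and lower members moved with scaling. With the deposited FPKM left unscaled, 6 nuclear members were higher and 12 lower, and the median of nuclear members was -0.01 while that of all tested genes was 0.07. The number lower ran from 9 without phosphoramidon replicate 2 to 25 without phosphoramidon replicate 1, and the number higher from 1 to 2. In bulk RNA, fewer cells of a kind and less RNA per cell cannot be told apart.

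**Figure D1:**
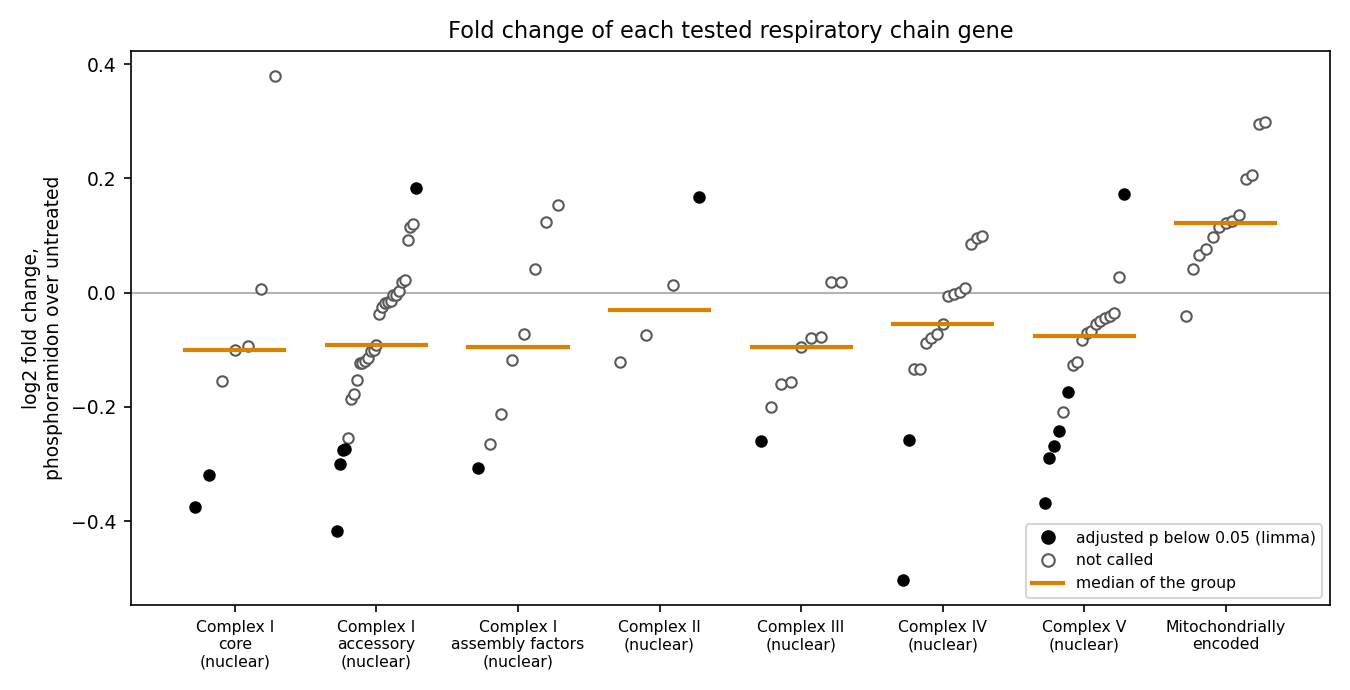
Log2 fold change, phosphoramidon over untreated, of each of the 103 tested respiratory chain genes, grouped by complex and by genome of origin. Filled points were called by limma, open points were not, and bars mark group medians, which lie below 0 for every nuclear group (-0.10 to -0.03) and at 0.12 for the mitochondrially encoded genes.

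Complex I has a hydrophilic arm, which oxidises NADH and holds the iron-sulfur clusters that lead to ubiquinone, and a membrane arm, which pumps protons. Of its 36 nuclear subunits tested, 1 was higher, 6 lower and 29 not called, with a median of -0.10. NDUFS8, which carries iron-sulfur clusters close to the ubiquinone site (ENSG00000110717, chromosome 11, 68030617 to 68036644 on GRCh38), had 4.06, 4.17 and 4.87 scaled FPKM in phosphoramidon libraries, against 5.97, 5.999 and 5.09 scaled FPKM in untreated libraries. Its phosphoramidon replicate 3 came close to untreated replicate 3 without reaching it (log2 fold change -0.37 ± 0.09 (SE), limma adjusted p = 0.014).

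Other core subunits had mixed values. NDUFV1, which binds NADH and the flavin that accepts its electrons, had 8.76, 8.73 and 9.62 scaled FPKM in phosphoramidon libraries, against 10.3, 10.6 and 9.41 scaled FPKM in untreated libraries, and the groups overlapped at 1 library each (log2 fold change -0.16 ± 0.06 (SE), limma adjusted p = 0.084). It was called without untreated replicate 3 (log2 fold change -0.20, adjusted p = 0.042). NDUFS1, the largest iron-sulfur subunit, had 11.4 ± 0.292 scaled FPKM in phosphoramidon and 12.3 ± 0.289 scaled FPKM in untreated libraries (SD, n = 3 each, as for all means given), with a log2 fold change of -0.10 that was not called. NDUFS3 and NDUFS7, both of the hydrophilic arm, had log2 fold changes of -0.09 and 0.01 and were not called. NDUFV2, an iron-sulfur subunit beside NDUFV1, had the highest fold change of any nuclear member, but at a low level and with overlapping groups. Its values were 0.721, 1.05 and 0.836 scaled FPKM in phosphoramidon libraries, against 0.554, 0.828 and 0.565 scaled FPKM in untreated libraries (log2 fold change 0.38 ± 0.19 (SE), limma adjusted p = 0.16).

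Of 30 accessory subunits of complex I, 29 were tested, and 1 was higher, 4 lower and 24 not called, with a median of -0.09. NDUFB7, a twin-cysteine protein on the intermembrane face of the membrane arm (chromosome 19, 14566078 to 14572062), had 35.2, 32.9 and 28.3 scaled FPKM in phosphoramidon libraries, against 47.8, 45.6 and 35.8 scaled FPKM in untreated libraries. Untreated replicate 3 lay nearly level with phosphoramidon replicate 1, which leaves the groups apart by less than 1 scaled FPKM (log2 fold change -0.42 ± 0.12 (SE), limma adjusted p = 0.037). The call was lost without phosphoramidon replicate 2 or 3 or untreated replicate 1 or 2 (log2 fold change -0.44 to -0.33, adjusted p from 0.09 to 0.12). NDUFA8, of the same twin-cysteine type (chromosome 9, 122144058 to 122159819), had 32.9, 30.7 and 33.3 scaled FPKM in phosphoramidon libraries, against 41.3, 37.6 and 40.6 scaled FPKM in untreated libraries. Its groups were separated by more than their own spread (log2 fold change -0.30 ± 0.05 (SE), limma adjusted p = 0.0024).

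NDUFB9, a matrix-side subunit of the membrane arm, had 10.99, 9.54 and 9.81 scaled FPKM in phosphoramidon libraries, against 11.9, 13.4 and 11.6 scaled FPKM in untreated libraries (log2 fold change -0.28 ± 0.07 (SE), limma adjusted p = 0.019). Without phosphoramidon replicate 2 or 3 or untreated replicate 2 it was not called (log2 fold change -0.26 to -0.21, adjusted p from 0.059 to 0.069). NDUFB11, a membrane-spanning subunit encoded on the X chromosome, had 32.6, 28.7 and 28.4 scaled FPKM in phosphoramidon libraries, against 38.6, 35.6 and 34.1 scaled FPKM in untreated libraries (log2 fold change -0.27 ± 0.07 (SE), limma adjusted p = 0.013), and without phosphoramidon replicate 2 its adjusted p was 0.05038 (log2 fold change -0.25). NDUFC1, a small membrane subunit, rose. It had 6.35, 6.43 and 6.37 scaled FPKM in phosphoramidon libraries, against 5.66, 5.91 and 5.27 scaled FPKM in untreated libraries, so that every phosphoramidon library was higher than every untreated one (log2 fold change 0.18 ± 0.06 (SE), limma adjusted p = 0.038). That call held in the fit without untreated replicate 2 and in none of the other 5 fits that left out a library (log2 fold change 0.14 to 0.19, adjusted p from 0.074 to 0.11).

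The accessory subunit with the highest level, NDUFS5, had 219, 207 and 189 scaled FPKM in phosphoramidon libraries, against 241, 219 and 223 scaled FPKM in untreated libraries, and phosphoramidon replicate 1 lay within the untreated range (log2 fold change -0.15 ± 0.06 (SE), limma adjusted p = 0.092). Without phosphoramidon replicate 1 it was called lower (log2 fold change -0.20, adjusted p = 0.035). NDUFS6, a zinc-binding subunit, missed the threshold narrowly although its groups did not overlap (20.3 ± 1.70 scaled FPKM in phosphoramidon and 22.96 ± 0.621 scaled FPKM in untreated libraries, log2 fold change -0.18 ± 0.06 (SE), limma adjusted p = 0.053). It too was called without phosphoramidon replicate 1 (log2 fold change -0.24, adjusted p = 0.012). NDUFA6, an accessory subunit at the joint of the arms, had 31.4, 30.4 and 27.03 scaled FPKM in phosphoramidon and 25.7, 28.3 and 27.6 scaled FPKM in untreated libraries. It was called higher without phosphoramidon replicate 3 (log2 fold change 0.18, adjusted p = 0.039) and not in the fit of all 6 libraries (log2 fold change 0.12, adjusted p = 0.18).

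Assembly factors help to build complex I and are not part of the finished enzyme. Of 8 with an NDUFAF symbol, 1 was lower and 7 not called, with a median of -0.10. NDUFAF3, which acts on the ubiquinone-binding module together with NDUFAF4, had 7.06, 6.56 and 7.14 scaled FPKM in phosphoramidon libraries, against 9.19, 8.54 and 8.05 scaled FPKM in untreated libraries (log2 fold change -0.31 ± 0.06 (SE), limma adjusted p = 0.0065). Every phosphoramidon library was lower than every untreated one. Its partner NDUFAF4 had 3.84, 3.47 and 4.12 scaled FPKM in phosphoramidon libraries, against 4.02, 4.29 and 5.01 scaled FPKM in untreated libraries, and phosphoramidon replicate 3 exceeded untreated replicate 1 (log2 fold change -0.21 ± 0.10 (SE), limma adjusted p = 0.12). In NDUFAF8, untreated replicate 1 stood apart and held 5.11 scaled FPKM where the other 5 libraries held 7.57 to 8.97.

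Complex II is the only complex without mitochondrially encoded subunits. Of its 4 genes, 1 was higher and 3 were not called. SDHD, which anchors the enzyme in the membrane and takes part in the ubiquinone site (chromosome 11, 112086773 to 112120013), had 12.2, 12.7 and 12.7 scaled FPKM in phosphoramidon libraries, against 10.6, 11.1 and 11.7 scaled FPKM in untreated libraries (log2 fold change 0.17 ± 0.05 (SE), limma adjusted p = 0.031). The groups did not overlap, but the call was lost without phosphoramidon replicate 2 or 3 or untreated replicate 1 or 2 (log2 fold change 0.13 to 0.17, adjusted p from 0.077 to 0.094). Of its 50-base coding windows 88.2% also occur in transcripts of other genes, so the call is uncertain. SDHC, the other membrane anchor, stood at 6.73 ± 0.326 scaled FPKM in phosphoramidon and 7.33 ± 0.382 scaled FPKM in untreated libraries, a log2 fold change of -0.12 that was not called. SDHB, the iron-sulfur subunit, had 23.2 ± 1.59 scaled FPKM in phosphoramidon and 24.4 ± 0.605 scaled FPKM in untreated libraries, and SDHA, the flavoprotein that oxidises succinate, had 1.28 ± 0.116 scaled FPKM in phosphoramidon and 1.27 ± 0.0888 scaled FPKM in untreated libraries. Neither was called (log2 fold changes -0.08 and 0.01).

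In complex III, which oxidises ubiquinol and reduces cytochrome c, 1 of 9 nuclear members was lower and 8 were not called, and the median was -0.10. UQCRC1, a large core protein on the matrix side (chromosome 3, 48599002 to 48610976), had 30.1, 28.4 and 30.5 scaled FPKM in phosphoramidon libraries, against 37.7, 35.5 and 33.6 scaled FPKM in untreated libraries (log2 fold change -0.26 ± 0.05 (SE), limma adjusted p = 0.0055). All 3 phosphoramidon libraries lay below all 3 untreated ones. Its partner core protein UQCRC2 differed less, at 10.998 ± 0.263 scaled FPKM in phosphoramidon and 11.6 ± 0.326 scaled FPKM in untreated libraries, and was not called (log2 fold change -0.08 ± 0.04 (SE), limma adjusted p = 0.20), although its groups did not overlap either. UQCRB, which lies near the ubiquinone site, missed the threshold narrowly, with 9.40, 9.28 and 8.39 scaled FPKM in phosphoramidon libraries, against 9.91, 10.2 and 10.1 scaled FPKM in untreated libraries (log2 fold change -0.16 ± 0.05 (SE), limma adjusted p = 0.052). It was called without phosphoramidon replicate 1 (log2 fold change -0.19, adjusted p = 0.048), and in 5 of the alternatives that kept all 6 libraries. The Rieske iron-sulfur protein UQCRFS1 and the small subunit UQCR10 were not called, with log2 fold changes of 0.02 and 0.02. Without phosphoramidon replicate 1, UQCRH, the hinge protein that holds cytochrome c1, and UQCR11, another small subunit, were called lower (log2 fold changes -0.15 and -0.22, adjusted p = 0.022 and 0.039). UQCRQ, a small membrane subunit, was not called in the fit of all 6 libraries (log2 fold change -0.20 ± 0.07 (SE), limma adjusted p = 0.067). It was called without phosphoramidon replicate 1 or untreated replicate 3 (log2 fold change -0.27 to -0.26, adjusted p from 0.024 to 0.026), and with all libraries under TMM factors from all genes above 0, voom or the replicate block.

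Complex IV, cytochrome c oxidase, has a mitochondrially encoded core surrounded by nuclear subunits, several of which occur as tissue isoforms. Of 18 nuclear members, 15 were tested, of which 2 were lower and 13 not called, with a median of -0.05. COX4I1, the general isoform of subunit 4 (chromosome 16, 85798633 to 85807044), had 43.5, 42.1 and 41.1 scaled FPKM in phosphoramidon libraries, against 52.005, 51.3 and 48.3 scaled FPKM in untreated libraries (log2 fold change -0.26 ± 0.04 (SE), limma adjusted p = 0.0023). The lowest untreated library exceeded the highest phosphoramidon library. Its isoform COX4I2, which is known from lung and from hypoxic cells, was listed at 0 in all libraries but phosphoramidon replicate 3, where it had 0.0711 scaled FPKM.

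NDUFA4 was once counted with complex I and is now placed in complex IV. It had 20.8, 19.4 and 19.8 scaled FPKM in phosphoramidon libraries, against 20.7, 19.4 and 19.9 scaled FPKM in untreated libraries, a log2 fold change of 0.00094 that turned negative with other factors between libraries (-0.02 with TMM factors from all genes above 0). Its paralog NDUFA4L2, known as a hypoxia-induced gene, had 0.226, 0.237 and 0.211 scaled FPKM in phosphoramidon libraries, against 0.330, 0.341 and 0.413 scaled FPKM in untreated libraries. The groups did not overlap and the fold change was the lowest of any member (log2 fold change -0.50 ± 0.15 (SE), limma adjusted p = 0.032), but in each of the 6 fits that left out a library the call was lost (log2 fold change -0.55 to -0.42, adjusted p from 0.055 to 0.099). NDUFA4 exceeded NDUFA4L2 in every library.

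Of the other paralogs, the general forms exceeded the tissue forms in every library. COX6A1 had 21.8, 21.2 and 21.2 scaled FPKM in phosphoramidon libraries, against 20.1, 21.2 and 19.3 scaled FPKM in untreated libraries, while COX6A2, the heart and skeletal muscle form, ranged from 0 to 0.447 scaled FPKM over the 6 libraries and did not pass the filter. COX7A2 had 26.3 ± 2.13 scaled FPKM in phosphoramidon and 26.3 ± 0.553 scaled FPKM in untreated libraries, and COX7A1, the muscle form, had 0.936 ± 0.284 scaled FPKM in phosphoramidon and 0.865 ± 0.235 scaled FPKM in untreated libraries. Neither was called (log2 fold changes -0.0029 and 0.10, adjusted p = 0.98 and 0.78). COX7A2L, a relative that joins complexes III and IV into supercomplexes, had 16.2, 15.5 and 13.8 scaled FPKM in phosphoramidon libraries, against 17.05, 16.03 and 16.8 scaled FPKM in untreated libraries (log2 fold change -0.13 ± 0.06 (SE), limma adjusted p = 0.13). COX6B1 had 32.5 ± 1.95 scaled FPKM in phosphoramidon and 34.2 ± 1.98 scaled FPKM in untreated libraries, and its testis form COX6B2 had 0.103 ± 0.0551 scaled FPKM in phosphoramidon and 0.0869 ± 0.0412 scaled FPKM in untreated libraries. COX8A, with 27.04 ± 1.06 scaled FPKM in phosphoramidon and 27.2 ± 0.949 scaled FPKM in untreated libraries, exceeded the testis form COX8C, which was above 0 in 1 library of each group. The log2 fold change of COX8A was -0.0061, and that of COX5A, a matrix-side subunit, was -0.08 without overlap between the groups (adjusted p = 0.16). COX7C, a small membrane subunit, was called lower without phosphoramidon replicate 1 (log2 fold change -0.19, adjusted p = 0.038) and not in the fit of all libraries (adjusted p = 0.12).

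Complex V has a catalytic head in the matrix (F1), a membrane rotor built around a ring of c subunits, and a peripheral stalk that holds the head still. Of 19 nuclear members other than a readthrough gene, 18 were tested, and 1 was higher, 5 lower and 12 not called, with a median of -0.08. The called share, 33.3%, was close to that of all tested genes and was the highest among the complexes. ATP5F1B, the catalytic beta subunit of the head, had 205, 191 and 199.8 scaled FPKM in phosphoramidon libraries, against 231, 224 and 217 scaled FPKM in untreated libraries (log2 fold change -0.17 ± 0.04 (SE), limma adjusted p = 0.015). Its groups did not overlap, and the call was lost without phosphoramidon replicate 2 (log2 fold change -0.15, adjusted p = 0.064) or untreated replicate 1 (-0.15, adjusted p = 0.051). The alpha subunit ATP5F1A, its partner in the head, had 27.05 ± 0.626 scaled FPKM in phosphoramidon and 28.3 ± 0.358 scaled FPKM in untreated libraries and was not called (log2 fold change -0.07 ± 0.04 (SE), limma adjusted p = 0.20). ATP5F1D, the delta subunit of the central stalk, had 5.36, 5.19 and 4.95 scaled FPKM in phosphoramidon libraries, against 7.40, 7.22 and 5.62 scaled FPKM in untreated libraries (log2 fold change -0.37 ± 0.10 (SE), limma adjusted p = 0.024). Untreated replicate 3 lay close to the phosphoramidon libraries, and the call was lost without phosphoramidon replicate 2 or 3 or untreated replicate 1 or 2 (log2 fold change -0.37 to -0.30, adjusted p from 0.064 to 0.077).

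The 3 genes ATP5MC1, ATP5MC2 and ATP5MC3 encode the same mature c subunit. ATP5MC2 (chromosome 12, 53632726 to 53677408) had the lowest adjusted p in complex V, with 15.8, 15.5 and 15.8 scaled FPKM in phosphoramidon libraries, against 19.96, 18.5 and 19.2 scaled FPKM in untreated libraries (log2 fold change -0.29 ± 0.04 (SE), limma adjusted p = 0.0013). Its phosphoramidon libraries lay within 0.3 scaled FPKM of each other and below every untreated library. ATP5MC1 had 8.09, 6.89 and 6.88 scaled FPKM in phosphoramidon libraries, against 7.76, 8.69 and 8.81 scaled FPKM in untreated libraries, and phosphoramidon replicate 1 overlapped the untreated range (log2 fold change -0.21 ± 0.08 (SE), limma adjusted p = 0.072). It was called without phosphoramidon replicate 1 or untreated replicate 1 (log2 fold change -0.29 to -0.27, adjusted p from 0.019 to 0.045). ATP5MC3 had 12.97, 11.8 and 12.8 scaled FPKM in phosphoramidon libraries, against 13.1, 13.4 and 12.6 scaled FPKM in untreated libraries, with overlapping groups (log2 fold change -0.05 ± 0.05 (SE), limma adjusted p = 0.45). ATP5MC2 was thus the c-subunit gene with the highest scaled FPKM in both groups and the one that was called. Its rank depends on merged exon length, which is 3991 bases for ATP5MC2 and 6780 for ATP5MC3. In fragments ATP5MC3 held more, with a mean of 1953 per library against 1578.5 for ATP5MC2.

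In the peripheral stalk, ATP5PB, subunit b, had 33.1, 32.96 and 31.1 scaled FPKM in phosphoramidon libraries, against 37.8, 37.97 and 39.3 scaled FPKM in untreated libraries, without overlap (log2 fold change -0.24 ± 0.04 (SE), limma adjusted p = 0.0024). ATP5PO, which joins the stalk to the head, and ATP5PF, another stalk subunit, were not called (log2 fold changes -0.07 and -0.08), and ATP5F1E, the epsilon subunit of the central stalk, was called lower without phosphoramidon replicate 1 (log2 fold change -0.18, adjusted p = 0.022) and with voom on recovered fragments, and not in the fit of all 6 libraries (adjusted p = 0.099). ATP5PD, stalk subunit d, had non-overlapping groups at 20.05 ± 1.03 scaled FPKM in phosphoramidon and 21.8 ± 0.214 scaled FPKM in untreated libraries and was not called (log2 fold change -0.12 ± 0.05 (SE), limma adjusted p = 0.073). It was called without phosphoramidon replicate 1 (log2 fold change -0.16, adjusted p = 0.024) and with TMM factors from all genes above 0. ATP5MK, a small membrane subunit found where synthase dimers meet (chromosome 10, 103389041 to 103396492), had 50.5, 45.7 and 47.6 scaled FPKM in phosphoramidon libraries, against 56.7, 57.4 and 58.9 scaled FPKM in untreated libraries (log2 fold change -0.27 ± 0.05 (SE), limma adjusted p = 0.0024). Every untreated library was higher than every phosphoramidon library.

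ATP5IF1 encodes the protein that blocks the synthase from running backwards and hydrolysing ATP. It was the member of complex V that rose (chromosome 1, 28236109 to 28246906), with 22.1, 21.3 and 20.99 scaled FPKM in phosphoramidon libraries, against 19.5, 19.3 and 18.3 scaled FPKM in untreated libraries (log2 fold change 0.17 ± 0.04 (SE), limma adjusted p = 0.017). The groups did not overlap, and the adjusted p was 0.051 without phosphoramidon replicate 1 (log2 fold change 0.15) and 0.051 without untreated replicate 3 (log2 fold change 0.14).

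**Figure D2:**
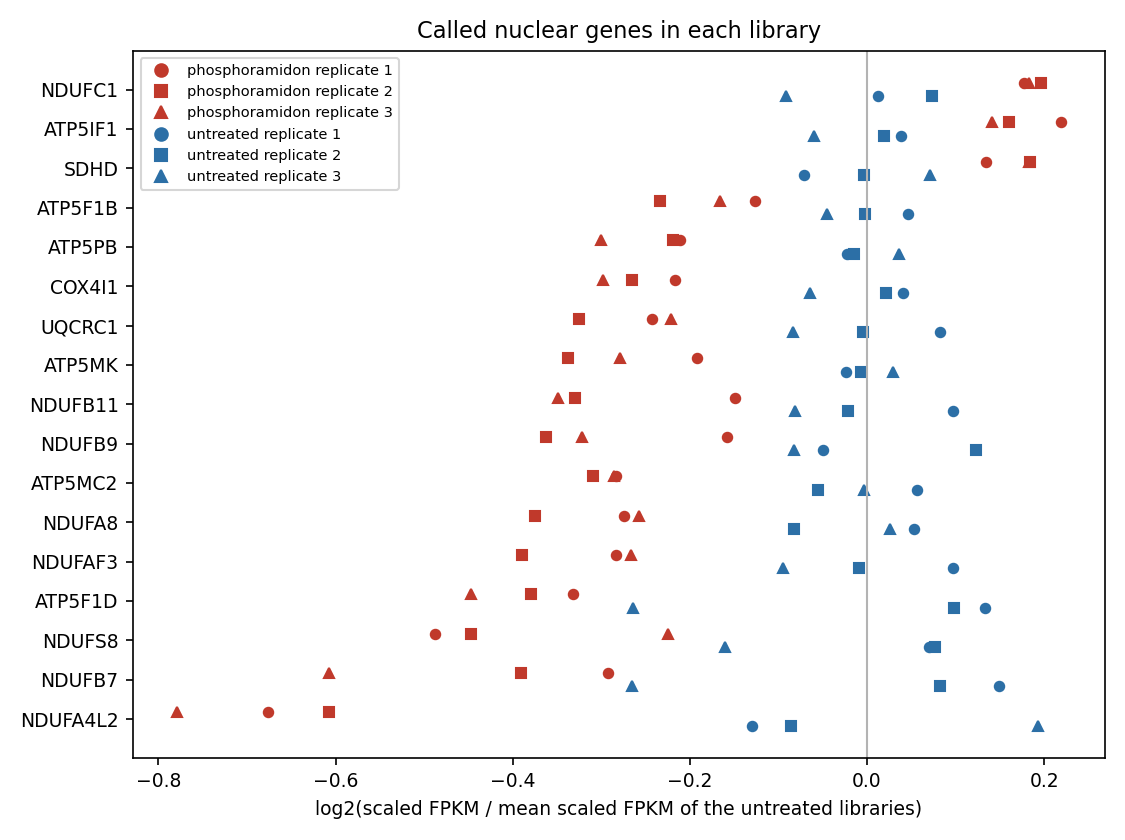
Called nuclear members described in the text, in each library, as log2 of its scaled FPKM over the mean of the untreated libraries, with phosphoramidon libraries in red and untreated libraries in blue. For all genes drawn the groups do not overlap. Untreated replicate 3 is the untreated library closest to the phosphoramidon libraries for NDUFB7, ATP5F1D and NDUFS8. The same holds for NDUFB9, NDUFB11, NDUFAF3, UQCRC1, COX4I1, ATP5F1B and SDHD.

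Calls differed in how they stood up to 16 alternatives, which used other factors, pseudocounts, filters or tests or left out a library. Members that stayed called in all of these, each of them lower with phosphoramidon, included NDUFA8 and NDUFAF3 of complex I, UQCRC1 of complex III, COX4I1 of complex IV, and ATP5MC2, ATP5PB and ATP5MK of complex V. NDUFS8 stayed called in 15. The member called least often was NDUFA4L2, in 6, followed by NDUFC1 in 8 and NDUFB7 in 9. Of the 3 members that rose, ATP5IF1 stayed called in 14 and SDHD in 11. With the deposited FPKM left unscaled, ATP5F1B, NDUFB7 and NDUFB9 were not called. With no filter on low values, which raises the number of genes tested to 34623, NDUFS8, NDUFB7, NDUFB9, NDUFB11, NDUFC1, NDUFA4L2, SDHD and ATP5F1D were not called. With voom on recovered fragments NDUFA4L2 and NDUFC1 were not called. Of the members above that were not called in the fit of all 6 libraries, NDUFV1, NDUFS5, NDUFS6, ATP5MC1 and COX7A2L were called with voom, besides UQCRB, UQCRQ and ATP5F1E. NDUFS5 and NDUFS6 were called with the replicate block, besides UQCRQ, and NDUFA6 and COX6A1 with the deposited FPKM left unscaled. NDUFS6 was also called with TMM factors without mitochondrial genes, and NDUFS6 and ATP5MC1 with TMM factors from all genes above 0.

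The 13 mitochondrially encoded mRNAs were the most abundant of all members, and none was called by limma in the fit of all 6 libraries or by voom on recovered fragments, while 1, MT-CYB, had an unadjusted p below 0.05. Their median log2 fold change was 0.12, and 12 of 13 lay above 0. They took 6.70, 6.71 and 6.53% of all fragments in phosphoramidon libraries, against 6.17, 5.07 and 6.58% in untreated libraries. Untreated replicate 2 was the lowest of the 6 libraries for 13 of the 13 genes, and no other library was the lowest for any. Without untreated replicate 2 the median of the 13 was 0.002, against 0.12 with all libraries, and without untreated replicate 3 it was 0.19. These genes are transcribed together as long precursors and share their libraries, so the 13 values are not independent of each other.

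MT-CYB, which encodes cytochrome b, the mitochondrially encoded subunit of complex III (chromosome M, 14747 to 15887), was the member of the 13 whose groups did not overlap. It had 4876, 4604 and 4809 scaled FPKM in phosphoramidon libraries, against 4103, 3259 and 4376 scaled FPKM in untreated libraries (log2 fold change 0.29 ± 0.10 (SE), limma adjusted p = 0.056). It was called without untreated replicate 3 (log2 fold change 0.38, adjusted p = 0.026), in the values as deposited and with the replicate number as a block, and its log2 fold change without untreated replicate 2 was 0.17. For the other 12 genes the groups overlapped.

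Among complex IV subunits, MT-CO1, the catalytic subunit with the heme and copper where oxygen is reduced, had 9420.4, 9747 and 8792 scaled FPKM in phosphoramidon libraries, against 10239, 8259 and 10389 scaled FPKM in untreated libraries. This was the only one of the 13 with a fold change below 0 (log2 fold change -0.04 ± 0.09 (SE), limma adjusted p = 0.77), and in the values as deposited that turned to 0.03. MT-CO2, which receives electrons from cytochrome c, had 8273, 7993 and 7804 scaled FPKM in phosphoramidon libraries, against 7826, 6184 and 8712 scaled FPKM in untreated libraries (log2 fold change 0.10 ± 0.11 (SE), limma adjusted p = 0.55). MT-CO3, the third core subunit, had 4599, 4682 and 4580.0 scaled FPKM in phosphoramidon libraries, against 4688, 3854 and 5011 scaled FPKM in untreated libraries (log2 fold change 0.04 ± 0.09 (SE), limma adjusted p = 0.76). In all of these, untreated replicate 3 was above, and untreated replicate 2 below, every phosphoramidon library.

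MT-ATP6 encodes subunit a, which forms the proton path of the synthase beside the c ring. It had 7135, 7073 and 6951 scaled FPKM in phosphoramidon libraries, against 6515, 4976 and 7155 scaled FPKM in untreated libraries (log2 fold change 0.20 ± 0.12 (SE), limma adjusted p = 0.24). MT-ATP8, a small membrane subunit, had 1725, 1718 and 1419.9 scaled FPKM in phosphoramidon libraries, against 1619, 1248 and 1618 scaled FPKM in untreated libraries (log2 fold change 0.12 ± 0.12 (SE), limma adjusted p = 0.48). The reading frames of these neighbours overlap in mitochondrial DNA, where MT-ATP8 runs from base 8366 to 8572 and MT-ATP6 from 8527 to 9207 on GRCh38. The last 46 of the 207 bases of MT-ATP8, or 22.2%, are also the first of MT-ATP6. They are shown in capitals, since fragments from them cannot be told apart between the genes:
MT-ATP8: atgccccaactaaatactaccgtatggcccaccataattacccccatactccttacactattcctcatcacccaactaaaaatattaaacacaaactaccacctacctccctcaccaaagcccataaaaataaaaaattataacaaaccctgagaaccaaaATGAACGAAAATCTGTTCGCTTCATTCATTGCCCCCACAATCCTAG

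MT-ND4L and MT-ND4 share 7 bases in the same way, and MT-ATP6 and MT-CO3 share 1. MT-ND4L had 6327, 5987 and 5387 scaled FPKM in phosphoramidon libraries, against 5964, 4452 and 5793 scaled FPKM in untreated libraries. MT-ND4 had 9485, 9124 and 9014 scaled FPKM in phosphoramidon libraries, against 8994, 7265 and 9393 scaled FPKM in untreated libraries. The 7 complex I subunits in mitochondrial DNA all belong to the membrane arm, and their fold changes ran from 0.07 to 0.30. MT-ND3 had the highest of them, with 2414, 2211 and 1948 scaled FPKM in phosphoramidon libraries, against 1838, 1449 and 2101 scaled FPKM in untreated libraries (log2 fold change 0.30 ± 0.14 (SE), limma adjusted p = 0.15). MT-ND2 had 4696, 4813 and 4841 scaled FPKM in phosphoramidon libraries, against 4301, 3382 and 4897 scaled FPKM in untreated libraries (log2 fold change 0.21 ± 0.12 (SE), limma adjusted p = 0.23). Both overlapped between the groups through untreated replicate 3, and both were called higher without it (log2 fold changes 0.42 and 0.33, adjusted p = 0.044 and 0.047).

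MT-ND1 had 5107, 5157 and 4928 scaled FPKM in phosphoramidon libraries, against 5038, 4043 and 5435 scaled FPKM in untreated libraries (log2 fold change 0.08). MT-ND5 had 2682, 2662 and 2434 scaled FPKM in phosphoramidon libraries, against 2525, 2067 and 2569 scaled FPKM in untreated libraries (log2 fold change 0.12). In MT-ND1 and MT-ND5 the phosphoramidon libraries lay within or across the untreated range. MT-ND6 is the only protein-coding gene read from the light strand of mitochondrial DNA. It had 2390.3, 2056 and 2115 scaled FPKM in phosphoramidon libraries, against 2221, 1774 and 2303 scaled FPKM in untreated libraries (log2 fold change 0.07), and its groups overlapped. Use of strand in counting is not given in the sources used here, so fragments from transcripts antisense to a gene cannot be told apart from its own.

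**Figure D3:**
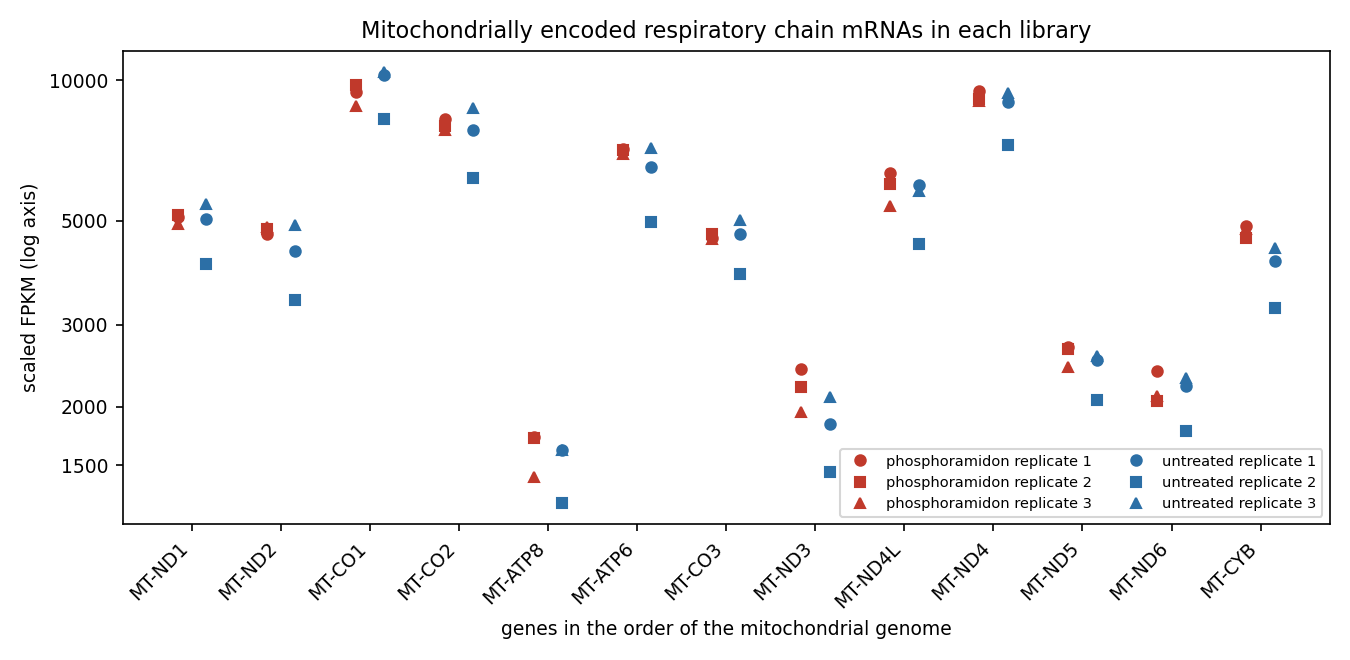
Scaled FPKM of the 13 mitochondrially encoded mRNAs in each library on a log axis, in genome order, with phosphoramidon libraries in red and untreated libraries in blue. Untreated replicate 2 (blue squares) is the lowest library for every gene, and MT-CYB is the gene whose groups do not overlap.

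The makeup of the mitochondrial mRNA pool removes a common factor such as the low values of untreated replicate 2. Each gene was expressed as a share of the summed FPKM of all 13, and no test was made since shares add up to 100% and depend on each other. MT-CYB made up 7.05, 6.79 and 7.40% in phosphoramidon libraries, against 6.23, 6.24 and 6.27% in untreated libraries. MT-CO1 made up 13.6, 14.4 and 13.5% in phosphoramidon libraries, against 15.5, 15.8 and 14.9% in untreated libraries. The share of MT-CYB was thus higher, and that of MT-CO1 lower, in all phosphoramidon libraries than in all untreated ones. MT-ATP6 was higher by a narrow margin without overlap, at 10.3, 10.4 and 10.7% in phosphoramidon and 9.89, 9.53 and 10.3% in untreated libraries. MT-ND1 and MT-CO3 were lower without overlap, at 7.52 ± 0.118% and 6.87 ± 0.198% in phosphoramidon libraries, against 7.73 ± 0.0727% and 7.23 ± 0.137% in untreated libraries (SD, n = 3 each). The shares of the other 8 overlapped between the groups.

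**Figure D4:**
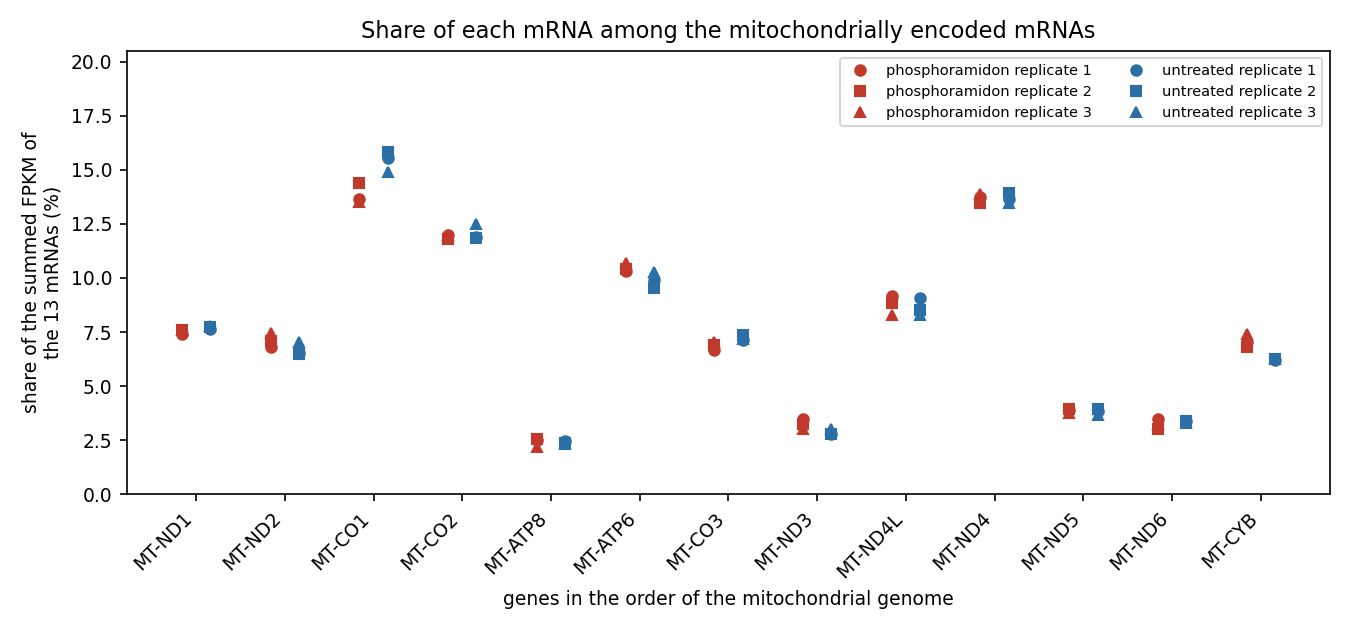
Share of each mRNA in the summed FPKM of the 13 mitochondrially encoded mRNAs, in percent, with a point for each library. Phosphoramidon libraries (red) lie above untreated ones (blue) for MT-CYB and MT-ATP6 and below them for MT-CO1, MT-CO3 and MT-ND1, and overlap for the others.

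The mitochondrial ribosomal RNAs, which are no members, come from the same long precursors and were not higher. MT-RNR2 had 9049, 8705 and 7985 scaled FPKM in phosphoramidon libraries, against 10746, 9695 and 11765 scaled FPKM in untreated libraries (log2 fold change -0.32 ± 0.08 (SE), limma adjusted p = 0.018), so that it fell without overlap between the groups. MT-RNR1 had 2074, 1301 and 1882 scaled FPKM in phosphoramidon libraries, against 2415, 1903 and 2786 scaled FPKM in untreated libraries and was not called (log2 fold change -0.44 ± 0.21 (SE), limma adjusted p = 0.15). The labels do not say whether poly(A) RNA was selected or ribosomal RNA removed, so the level of these RNAs depends on steps not given in the sources used here. Nuclear copies of mitochondrial genes, of which 122 are listed, can take fragments that belong to the members. They held 0.128 to 0.162% of fragments in phosphoramidon and 0.108 to 0.148% in untreated libraries. Most came from MTATP6P1 on chromosome 1, with 2037, 1994 and 1512 scaled FPKM in phosphoramidon libraries, against 1926, 1341 and 1908 scaled FPKM in untreated libraries, and like MT-ATP6 it was lowest in untreated replicate 2. MTCO3P12 and MTND2P28 followed with 178 ± 20.9 and 71.2 ± 8.09 scaled FPKM in phosphoramidon and 177 ± 13.7 and 61.99 ± 12.3 scaled FPKM in untreated libraries.

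Levels per length differed widely between the genomes. The median complex I subunit had 4784 scaled FPKM in phosphoramidon libraries when mitochondrially encoded and 8.56 scaled FPKM when nuclear, and 4193 and 8.40 scaled FPKM in untreated libraries. For complex IV the medians were 8023 and 17.9 scaled FPKM in phosphoramidon libraries, and 7574 and 18.3 scaled FPKM in untreated libraries. The summed FPKM of mitochondrially encoded over nuclear members was 37.9, 39.8 and 38.3 in phosphoramidon libraries, against 34.4, 27.7 and 37.3 in untreated libraries. Every phosphoramidon library was higher, though untreated replicate 3 was close to phosphoramidon replicate 1. The summed scaled FPKM of nuclear members was 1825, 1705 and 1696 in phosphoramidon libraries, against 1914, 1885 and 1872 in untreated libraries. In the values as deposited these sums were 1785 ± 54.4 FPKM in phosphoramidon and 1845 ± 22.2 FPKM in untreated libraries (SD, n = 3 each), and phosphoramidon replicate 1, at 1847 FPKM, lay within the untreated range.

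Nuclear subunits of the same complex also differed in level. In untreated cells complex I accessory subunits ran from 0.210 scaled FPKM for NDUFA7 to 228 for NDUFS5, and the core subunit NDUFV2 stood at 0.649 scaled FPKM. These levels depend on merged exon length, which is 548 bases for NDUFS5 and 10391 for NDUFA9. The core subunit NDUFS1, at 12.3 scaled FPKM in untreated libraries, held more fragments than NDUFS5. The means over the 6 libraries were 3270 fragments for NDUFS1 and 2685 for NDUFS5. Some members with a low listed level share much of their sequence with other genes, and fragments from shared sequence may be left out of counting or given to the other gene. Each member's coding sequence was cut into windows of 50 bases, and windows found in transcripts of another gene were counted. All windows of NDUFA7, 91.3% of NDUFV2, 85.7% of NDUFB8, 85.6% of NDUFA9 and 67.1% of NDUFA13 were shared. These 5 complex I subunits had 0.281, 0.870, 3.001, 0.997 and 0.442 scaled FPKM in phosphoramidon libraries, and 0.210, 0.649, 3.24, 1.21 and 0.484 scaled FPKM in untreated libraries. Other members shared as much at higher levels. UQCR11, with 100% shared, had 6.62 scaled FPKM in phosphoramidon and 7.38 in untreated libraries, and COX6A1, with 81.85%, had 21.4 and 20.2. The low member NDUFS7, at 0.978 and 0.974 scaled FPKM, shared none.

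The 18 nuclear members with at least 50% of windows shared had a median of 3.46 scaled FPKM in phosphoramidon and 3.69 scaled FPKM in untreated libraries, and the 79 others 12.2 and 12.3 scaled FPKM. Of the 15 tested in this set, 1 was higher and 14 were not called, and of the 75 tested among the others, 2 were higher and 15 lower. The called member that shares the most is SDHD, with 88.2% of windows shared, 61.5% of all with the overlapping gene AP002884.3, which was listed at 0 in every library. Fragments from such windows cannot be told apart. ATP5PB and ATP5MK each shared 28.9%, and COX4I1, UQCRC1 and NDUFA8 shared none. UQCRH and its intronless copy UQCRHL shared 53.7% and had 58.6 and 0.678 scaled FPKM in phosphoramidon and 62.5 and 0.711 scaled FPKM in untreated libraries, with neither called. Whether sharing lowered a level was not tested.

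**Figure D5:**
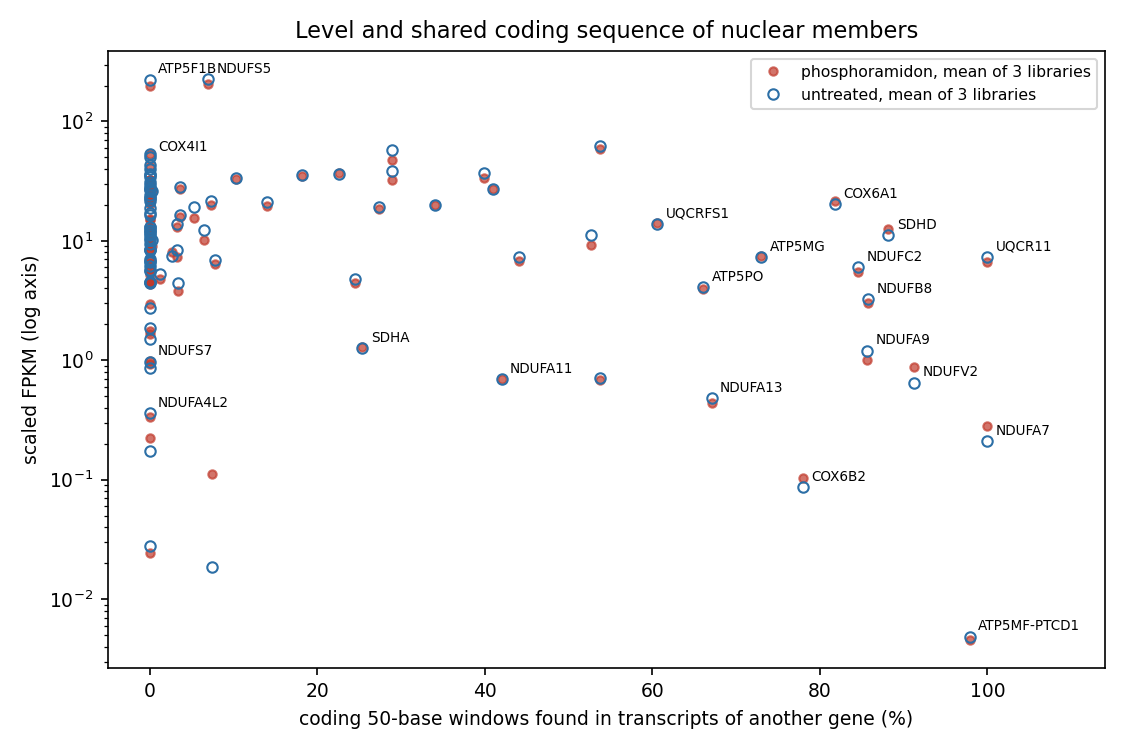
Mean scaled FPKM (log axis, n = 3 libraries a group) of each nuclear member against the percentage of its coding 50-base windows found in transcripts of another gene, with phosphoramidon as filled red and untreated as open blue points. Members with a mean of 0 in either group are not drawn. NDUFA7, NDUFV2, NDUFA9 and NDUFA13 combine over 60% sharing with levels near or below 1. COX6A1, SDHD and UQCRFS1 combine it with 20.2, 11.1 and 13.9 scaled FPKM in untreated libraries.

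The members that did not pass the filter were 7. They were NDUFA7, the isoforms COX4I2, COX6A2 and COX8C, the paralog ATP5MGL, and the readthrough genes NDUFC2-KCTD14 and ATP5MF-PTCD1, which join a member to its neighbour. ATP5MGL had 0.0662, 0.147 and 0.123 scaled FPKM in phosphoramidon libraries, against 0.0552, 0 and 0 scaled FPKM in untreated libraries, and its relative ATP5MG, subunit g of the synthase, had 7.44 ± 0.337 scaled FPKM in phosphoramidon and 7.29 ± 0.315 scaled FPKM in untreated libraries. All 18 called members were also checked for exons of other genes on either strand. NDUFB11 shared 44.9% of its exon bases with RBM10 on the opposite strand, NDUFAF3 shared 21.7% with DALRD3, NDUFB9 shared 21.0% with MTSS1 and TATDN1, and ATP5PB shared 10.3% with WDR77. NDUFA4L2 and COX4I1 shared 1.18% and 0.0835% with genes on the opposite strand. NDUFC1 shared 18.5% with MGARP on its own strand and ATP5MK 15.4% with the microRNA gene MIR1307. SDHD shared 11.2% with AP002884.3, ATP5MC2 6.99% with AC073594.1 and NDUFS8 3.18% with the microRNA genes MIR4691 and MIR7113, again on their own strands. Reads of neighbours on the opposite strand cannot be told apart where strand was not used. For these overlaps of NDUFC1, ATP5MK, SDHD, ATP5MC2 and NDUFS8, which lie on the same strand, use of strand would not separate the genes. UQCRC1, NDUFA8, NDUFB7, ATP5F1B, ATP5F1D and ATP5IF1 had no such overlap. Among low members outside the calls, NDUFS7 shared 49.1% of its exon bases with genes on the opposite strand and had 0.978 ± 0.136 scaled FPKM in phosphoramidon and 0.974 ± 0.140 scaled FPKM in untreated libraries.

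Promoters of nuclear respiratory chain genes are known to carry sites for the factors NRF1, GABP (also called NRF2) and YY1. Promoter windows were taken from RefSeq on GRCh38.p14 for the 77 of 97 nuclear members with an entry. The most frequent window ran from 250 bases before to 50 bases after the gene start. This placing held for 70.9% of the promoter entries compared with a gene start, and the others lay elsewhere relative to it. Searched on both strands, the NRF1 letters (GCGCA, then any base, then GCGC) were in 18 of the 77 (23.4%), against 11.4% of the 11438 promoters of tested genes and 6.28% of all 27305 promoters. The GABP letters CCGGAAG were in 21 (27.3%), against 18.5% of tested and 10.7% of all promoters, and the YY1 letters AAGATGGCG in 8 (10.4%), against 3.81% and 1.85%. At least 1 of the motifs was in 40 of the 77, or 51.9%. Of the 10 members that fell and have an entry, 2 held the NRF1, 3 the GABP and 1 the YY1 letters, and 5 held at least 1. The GABP and YY1 letters can overlap, since AAG ends the one and begins the other. A match is a description of letters and not of binding, and a missing match says only that these letters are not in the window.

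Promoters are shown for 4 of the members that stayed called lower under all alternatives and for 2 that rose, with matches in capitals. They lie at chr16:85799445-85799744 on the plus strand (COX4I1), chr10:103396426-103396725 on the minus strand (ATP5MK), chr3:48609597-48609896 on the minus strand (UQCRC1), chr9:122159730-122160029 on the minus strand (NDUFA8), chr11:112086623-112086922 on the plus strand (SDHD) and chr1:28235874-28236173 on the plus strand (ATP5IF1), and each is written 5′ to 3′ along its gene:
COX4I1: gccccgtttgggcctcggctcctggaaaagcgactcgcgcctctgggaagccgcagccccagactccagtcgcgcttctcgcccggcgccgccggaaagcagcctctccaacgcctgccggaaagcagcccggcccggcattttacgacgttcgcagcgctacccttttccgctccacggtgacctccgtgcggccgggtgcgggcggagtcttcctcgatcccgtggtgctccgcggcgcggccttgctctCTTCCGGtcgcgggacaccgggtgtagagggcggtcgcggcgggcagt
ATP5MK: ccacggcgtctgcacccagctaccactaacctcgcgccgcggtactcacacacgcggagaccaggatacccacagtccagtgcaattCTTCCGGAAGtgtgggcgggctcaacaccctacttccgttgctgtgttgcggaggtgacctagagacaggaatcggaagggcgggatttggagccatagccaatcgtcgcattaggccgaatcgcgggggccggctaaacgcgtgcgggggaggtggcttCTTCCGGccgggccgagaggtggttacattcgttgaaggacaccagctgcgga
UQCRC1: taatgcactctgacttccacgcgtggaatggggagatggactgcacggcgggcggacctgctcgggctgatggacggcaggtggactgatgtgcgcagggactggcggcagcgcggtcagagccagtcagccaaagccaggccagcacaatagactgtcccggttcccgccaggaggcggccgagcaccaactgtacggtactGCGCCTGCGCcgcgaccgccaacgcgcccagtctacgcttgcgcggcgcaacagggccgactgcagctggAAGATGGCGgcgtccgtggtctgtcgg
NDUFA8: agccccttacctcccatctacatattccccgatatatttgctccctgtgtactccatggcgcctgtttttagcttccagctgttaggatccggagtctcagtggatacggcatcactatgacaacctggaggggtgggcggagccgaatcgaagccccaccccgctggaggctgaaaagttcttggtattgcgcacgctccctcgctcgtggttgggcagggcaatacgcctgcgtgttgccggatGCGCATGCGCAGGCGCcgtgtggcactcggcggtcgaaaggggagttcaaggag
SDHD: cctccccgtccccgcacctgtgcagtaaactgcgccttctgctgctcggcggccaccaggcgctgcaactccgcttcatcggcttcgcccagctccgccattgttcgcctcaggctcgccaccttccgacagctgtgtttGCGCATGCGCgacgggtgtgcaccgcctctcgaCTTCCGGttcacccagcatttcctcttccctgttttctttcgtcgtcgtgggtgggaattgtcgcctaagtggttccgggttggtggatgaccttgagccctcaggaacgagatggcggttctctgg
ATP5IF1: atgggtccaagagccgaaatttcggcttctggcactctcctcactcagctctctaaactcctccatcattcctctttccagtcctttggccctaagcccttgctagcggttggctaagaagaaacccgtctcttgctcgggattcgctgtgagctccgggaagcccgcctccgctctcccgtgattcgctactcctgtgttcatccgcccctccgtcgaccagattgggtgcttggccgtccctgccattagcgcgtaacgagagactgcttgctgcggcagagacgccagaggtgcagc

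COX4I1 and ATP5MK held the GABP letters, at 1 place in COX4I1 and at 3 in ATP5MK, where a palindrome gives a match on each strand. UQCRC1 held the NRF1 and the YY1 letters, NDUFA8 the NRF1 letters at 2 overlapping places, and SDHD the NRF1 and the GABP letters. ATP5IF1 held none of the motifs in this window. ATP5MC2, ATP5PB and NDUFAF3 also stayed called lower under all alternatives, and their promoters, not shown, held none of the motifs. The promoters shown thus do not stand for all members with stable calls. Members that fell and members that rose both included promoters with matches and promoters without.

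Genes that regulate respiratory chain transcription were followed in a list of 13, of which 1 was higher and 3 lower. PPARGC1A, the coactivator PGC-1alpha that drives mitochondrial gene programmes, had 1.20, 1.24 and 1.12 scaled FPKM in phosphoramidon libraries, against 2.12, 1.95 and 1.86 scaled FPKM in untreated libraries (log2 fold change -0.69 ± 0.10 (SE), limma adjusted p = 0.0011). PPRC1, a related coactivator, had 14.2, 13.8 and 13.9 scaled FPKM in phosphoramidon libraries, against 20.2, 20.2 and 19.3 scaled FPKM in untreated libraries (log2 fold change -0.50 ± 0.04 (SE), limma adjusted p = 6.35e-05). ESRRG, an estrogen-related receptor that acts with them, had 0.160, 0.208 and 0.181 scaled FPKM in phosphoramidon libraries, against 0.413, 0.487 and 0.520 scaled FPKM in untreated libraries (log2 fold change -1.02 ± 0.16 (SE), limma adjusted p = 0.0016). The groups did not overlap for any of the 3. NRF1, the factor whose letters were searched, was higher, with 4.83, 4.32 and 4.57 scaled FPKM in phosphoramidon libraries, against 3.997, 3.55 and 4.13 scaled FPKM in untreated libraries (log2 fold change 0.23 ± 0.08 (SE), limma adjusted p = 0.048), while GABPA, the DNA-binding subunit of GABP, and the receptor ESRRA were not called (log2 fold changes 0.10 and -0.18). The call of NRF1 was lost without phosphoramidon replicate 1, 2 or 3 or untreated replicate 1 or 2, with a log2 fold change of NRF1 from 0.16 to 0.27 and an adjusted p from 0.06 to 0.15.

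Of 13 genes of mitochondrial transcription and DNA maintenance, 3 were higher and 3 lower. TFB2M, which opens mitochondrial promoters for the polymerase, had 16.4, 17.5 and 17.3 scaled FPKM in phosphoramidon libraries, against 21.1, 22.4 and 22.1 scaled FPKM in untreated libraries (log2 fold change -0.35 ± 0.04 (SE), limma adjusted p = 5.37e-04). POLG and POLG2, the subunits of the mitochondrial DNA polymerase, both rose (log2 fold changes 0.29 ± 0.06 (SE) and 0.35 ± 0.06 (SE), adjusted p = 0.0076 and 0.0029). TFAM, which packages mitochondrial DNA and starts its transcription, had 18.2, 18.8 and 18.1 scaled FPKM in phosphoramidon libraries, against 17.1, 17.2 and 18.2 scaled FPKM in untreated libraries, and POLRMT, the RNA polymerase, had 5.91, 6.29 and 6.30 scaled FPKM in phosphoramidon libraries, against 7.75, 7.10 and 6.06 scaled FPKM in untreated libraries. Neither was called (adjusted p = 0.22 and 0.17). Of 17 genes that process or stabilise mitochondrial RNA, 6 (35.3%) were lower and 11 not called, where 17.9% of all tested genes were lower. SLIRP, which helps to keep mitochondrial mRNAs stable, had 8.62, 8.75 and 8.43 scaled FPKM in phosphoramidon libraries, against 10.02, 10.4 and 10.3 scaled FPKM in untreated libraries (log2 fold change -0.25 ± 0.04 (SE), limma adjusted p = 0.0031), and FASTKD2 and GRSF1, proteins of mitochondrial RNA granules, fell by 0.33 and 0.22 on the log2 scale.

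Among 46 assembly factors outside the NDUFAF symbols, 45 were tested, and 7 were higher and 12 lower, with a median of -0.09. COA7, a factor needed for complex IV, had 7.84, 7.64 and 7.73 scaled FPKM in phosphoramidon libraries, against 11.2, 10.9996 and 10.97 scaled FPKM in untreated libraries (log2 fold change -0.51 ± 0.04 (SE), limma adjusted p = 7.70e-05). UQCC1, needed for cytochrome b of complex III, and ACAD9, needed for complex I, fell by 0.24 each on the log2 scale (adjusted p = 0.0044 and 0.0096). Of 9 further subunits and carriers, 2 were higher and 1 lower. ETFDH, which passes electrons from fatty acid oxidation to ubiquinone, rose with 5.24, 6.11 and 5.21 scaled FPKM in phosphoramidon libraries, against 3.81, 3.68 and 3.78 scaled FPKM in untreated libraries (log2 fold change 0.54 ± 0.07 (SE), limma adjusted p = 8.61e-04), and GPD2, which does so from glycerol 3-phosphate, rose by 0.28 on the log2 scale. AIFM1, a flavoprotein needed for respiratory chain assembly, fell by 0.16, a call that was lost in 5 of the 6 fits that left out a library (adjusted p from 0.06 to 0.13). CYC1, cytochrome c1 of complex III, and CYCS, cytochrome c, were not called (log2 fold changes -0.08 and 0.11).

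For 13 genes of ubiquinone synthesis the counts were 2 higher and 2 lower, and for 14 enzymes of the tricarboxylic acid cycle 3 higher and 3 lower. PDSS2, which makes the ubiquinone side chain, rose by 0.34, and COQ8B and COQ10B fell by 0.36 and 0.18 on the log2 scale. The call of COQ8B was lost in 3 and that of COQ10B in 4 of the 6 fits that left out a library (adjusted p from 0.058 to 0.079). In the cycle, SUCLG2 of succinyl-CoA ligase had 13.4, 14.3 and 13.7 scaled FPKM in phosphoramidon libraries, against 21.6, 19.03 and 18.2 scaled FPKM in untreated libraries (log2 fold change -0.50 ± 0.06 (SE), limma adjusted p = 6.31e-04), IDH3B of isocitrate dehydrogenase fell by 0.36 and OGDH of the oxoglutarate dehydrogenase complex rose by 0.23. The share of genes called in either direction in these 7 lists ran from 30.8 to 46.2%, around the 33.6% of all tested genes.

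Markers of other cells were set beside these results. Of all tested genes, 17.9% were lower and 15.6% higher. Of 7 mesenchymal markers, 4 were tested and all 4 were lower with phosphoramidon. Their summed level was 23.2 to 24.3 scaled FPKM in phosphoramidon and 63.1 to 67.5 scaled FPKM in untreated libraries, mostly from LUM, and COL3A1 was at 0 in every library. Of 12 tubular markers, 9 were tested, of which 4 were lower and 5 not called (202 to 216 scaled FPKM summed in phosphoramidon and 234 to 254 scaled FPKM in untreated libraries). Markers of blood and endothelial cells summed to 0.185 to 0.218 scaled FPKM in phosphoramidon and 0.0833 to 0.187 scaled FPKM in untreated libraries. The part of these markers in the values of respiratory chain genes was not tested.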

How the data were processed

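RNA of 6 HK-2 libraries, 3 treated with phosphoramidon and 3 untreated per their labels, was sequenced on an Illumina platform. The authors deposited a table of 1 value per gene and library, taken here as FPKM from the values, since no header names the unit: 79.2% of values above 0 gave whole fragments within 0.05 at the merged exon length of GENCODE annotation. Per the submitters' processing notes the build was GRCh38, and the tools named are HISAT2 2.1.0, Trimmomatic 0.38, DESeq2 1.22.1, featureCounts 1.6.0, FastQC, MultiQC and CASAVA, whose roles and settings are not stated.

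Fragments were recovered from these steps. For genes that were not whole at the annotated length, a length that made their values whole was searched for and used. FPKM was divided by TMM factors from genes that passed the filter of at least 10 fragments in at least 3 libraries, and limma 3.58.1 in R 4.3.3, with trend and robust variance, was run on log2(value + 0.1) across 16175 genes with Benjamini-Hochberg adjustment at 0.05. Alternatives changed factors, pseudocount, filter or test, added a replicate block or left out a library. TMM factors from all genes above 0 are an alternative chosen after seeing the data.

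The members, the other gene lists and the tests were chosen with earlier results of these data known. Values in every library were given for all mitochondrially encoded and called members, those with the lowest p in a complex and paralogs, and, in other lists, for up to 3 called genes with the lowest p and a few regulators. Other members named for a call gained on leaving out a library were picked after their values were seen. Markers of blood cells were analysed for 5 of 6 genes. A nuclear member is not reported by name here.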

Additional observations from a re-analysis of the deposited data

How the results depend on the processing

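With values as deposited, 7 members were called higher (6 nuclear, and MT-CYB as 1 mitochondrially encoded gene), and the nuclear medians moved to -0.011 for all nuclear members, -0.027 for complex I subunits, -0.027 for complex I assembly factors, 0.037 for complex II, -0.024 for complex III, 0.016 for complex IV and -0.0071 for complex V. There MT-CO1 (0.030), ATP5MC3 (0.015), COX7A2 (0.068) and COX8A (0.065) had log2 fold changes above 0. The summed level of nuclear members in untreated libraries was 1890.5 after division by TMM factors. Without a filter, 1 member was called higher and 9 lower, all nuclear, and the complex IV median was -0.016, with 34623 genes tested. With voom on recovered fragments 24 were lower, all nuclear. NDUFA4 had -0.0010 with TMM factors without mitochondrial genes, -0.016 with factors from all genes above 0 and -0.00085 with voom.

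Leaving out a library gave 1 to 4 members higher and 9 to 25 lower, with 1 to 2 nuclear members higher, 9 to 25 nuclear members lower and 0 to 3 mitochondrially encoded members higher. Medians ran from -0.087 to 0.0035 for complex II, -0.19 to -0.070 for complex III and -0.14 to -0.075 for complex V. Log2 fold changes crossed 0 for many members that were not called. Among them they ran from -0.097 to 0.30 for NDUFAF8, -0.092 to 0.098 for NDUFS7, -0.053 to 0.065 for SDHA, -0.25 to 0.015 for UQCRHL, -0.050 to 0.35 for COX6B2, -0.048 to 0.17 for MT-ND1, -0.051 to 0.14 for MT-ND6, -0.15 to 0.018 for MT-CO1, -0.042 to 0.21 for MT-CO2, -0.069 to 0.12 for MT-CO3, -0.0034 to 0.21 for MT-ATP8, -0.12 to 0.29 for COX7A1, -0.054 to 0.062 for COX7A2, -0.028 to 0.025 for NDUFA4 and -0.035 to 0.024 for COX8A. The causes were not tested.

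Same-numbered libraries had correlations of their deviations of 0.11, -0.02 and -0.01, and those with different numbers ran from -0.10 to 0.12. With 3 libraries a group, these values cannot decide whether the numbers pair the samples. With the replicate number as a block, 20 nuclear members were called, 17 of them shared with the 18 called without it, and 1 mitochondrially encoded member, MT-CYB, was higher (log2 fold change 0.29, adjusted p = 0.024).

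With 3 libraries a group the design rests on few replicates, and the deposited values give no separate depth. Genes below 10 fragments were not tested, so that isoforms such as COX4I2 and COX8C are described by level alone. Levels of members that share sequence with other genes depend on how shared fragments were counted.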
